A study of Mus musculus with 9 samples.

Results

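The genes described here are 6 components of the renin-angiotensin system, Agt, Ren1, Atp6ap2, Ace, Enpep and Agtr1a, taken by symbol from the 24421 genes in the table of sorted proximal tubular cells. All 6 were detected in every mouse and were among the 15583 genes tested. Poly(A) RNA from tdTomato + cells sorted from the kidney cortex was sequenced in 9 mice, and each library came from 1 mouse. The groups were 3 db/m mice, heterozygous for the leptin receptor mutation and not diabetic, 3 db/db mice, homozygous for it, obese and hyperglycemic, which received vehicle and are called untreated below, and 3 db/db-dapa mice, which received dapagliflozin at 1.5 mg/kg/day in drinking water for 8 weeks. Dapagliflozin blocks SGLT2, the glucose transporter through which the proximal tubule takes up most filtered glucose. All 3 groups were C57BL/6 by their labels and carried SLC34a1GCE, a tamoxifen-inducible Cre at the Slc34a1 locus, and the R26tdTomato reporter. All were given tamoxifen, 3 mg per mouse in each of 5 injections, from 8 weeks of age. The label therefore depends on a Cre expressed from a proximal tubular phosphate transporter gene, and an enzymatic digestion preceded the sort.

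Renin cuts angiotensinogen to release angiotensin I, and angiotensin-converting enzyme trims it to angiotensin II, the peptide that acts on the AT1 receptor to constrict vessels and to drive sodium uptake. The kidney holds a local version of this system, in which the proximal tubule makes angiotensinogen, carries angiotensin-converting enzyme and several other peptidases on its brush border, and bears AT1 receptors on both of its surfaces. Aminopeptidase A, encoded by Enpep, breaks angiotensin II down further, while Atp6ap2, the (pro)renin receptor, binds renin and is also an accessory subunit of the vacuolar proton pump.

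The stretch of Agt that encodes the peptides of the system is shown because the members below are the source, the cutters and the receiver of these few residues. It lies in exon 2 on the minus strand (chr8:124564450-124564479, GRCm38). Capitals mark the 8 codons of angiotensin II. The last codons, in lower case, are those of the pair of residues that angiotensin-converting enzyme removes from the 10 of angiotensin I, whereas aminopeptidase A removes the residue of the first codon.
Angiotensin I codons of Agt: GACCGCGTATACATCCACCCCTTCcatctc

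The metal-binding codons of the peptidases are shown because they tell the catalytic units apart. Ace holds a pair of catalytic domains, each with a zinc-binding motif of its own, in exon 8 (chr11:105972904-105972930, plus strand) and exon 20 (chr11:105985088-105985114, plus strand). Enpep holds 1 such motif, split between exons 5 and 6 of its minus-strand gene on chromosome 3. Capitals mark the codons of the residues that bind zinc or act in catalysis within the motif.
Ace, first domain: gtacacCACGAGatgggcCACgtgcag
Ace, second domain: gcgcacCACGAAatgggcCACatccag
Enpep: gttgccCACGAActtgtaCACcagtgg

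Proximal tubular identity was clear in every library. The summed level of 8 proximal tubular markers was 10010 to 16880 CPM (a count taken as a share of its library after TMM scaling), and Slc34a1, the locus that drives the label, was at 3530 to 6195 CPM. Total counts per mouse were 2733314 to 9033062, with db/db 1 the shallowest. Markers of other cells were present at lower summed levels. Those of 8 thick limb and distal nephron genes were 1147 to 2732 CPM in db/m, 902 to 1902 CPM in db/db and 830 to 1012 CPM in db/db-dapa mice. Umod, 1 of these, was at 593 to 1315 CPM in db/m mice, above the proximal marker Cubn at 341 to 478 CPM. Among podocyte markers db/db-dapa 1 stood apart, with 255 CPM over 5 genes against 18.0 to 80.9 in the other 8 mice. Blood genes summed to 1462 CPM in db/db 2, and to 120 and 97.9 CPM in db/db 1 and db/db 3. Their sums were 147 to 421 CPM in db/m and 29.6 to 297 CPM in db/db-dapa mice. Macrophage and leukocyte genes summed to 218 to 501 CPM in db/m, 134 to 376 CPM in db/db and 102 to 330 CPM in db/db-dapa mice. Genes with long transcripts stood higher against genes with short ones in some mice than in others, and this balance is given beside the members that moved with it. In bulk RNA of sorted cells, fewer cells of a type and less RNA per cell cannot be told apart. Genes were called with edgeR's quasi-likelihood test where the adjusted p was below 0.1 and the log2 fold change beyond 1 in either direction. Where 3 values are listed for the comparisons, they stand in the order db/db minus db/m, db/db-dapa (treated) minus db/db (untreated), and db/db-dapa minus db/m, and every difference between the groups of db/db mice is treated minus untreated.

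Ace was the only member called in any of the 3 comparisons, and it was lower in db/db than in db/m mice. Of the 6 members, 1 was called between db/db and db/m mice, where 1.24% of all genes tested were called. Between treated and untreated db/db mice, 0 members were called, and 0% of all genes. At an unadjusted p under 0.05 there were 808 genes in that comparison, Ace the only member among them. DESeq2 called 13 genes there, of which 0 were members, and limma with a weight per mouse called 449, with Ace and Enpep among them. Between db/db-dapa mice and db/m mice 0 members were called, against 1.05% of all genes, although Agt, Agtr1a and Enpep had an unadjusted p under 0.05. That p was reached by 2829 of the 15583 genes tested there. Between db/db and db/m mice 2142 genes reached it, Ace and Enpep among them. Counts at this p for the lists below are to be read beside these numbers. In db/db-dapa against db/m mice DESeq2 called Enpep among 507 genes in all, and limma with mouse weights called Agt and Enpep among 1619. Limma on log2(CPM + 1) without weights called 0 members there, and only Ace between db/db and db/m mice. On the lists below it called only genes of the S3 segment of the proximal tubule. The comparisons share their mice in pairs, so they are not independent of each other. Counted by whether the 3 mice of one group all lay outside the range of the other, 2 members, Ace and Ren1, did not overlap between db/db and db/m mice, where 16.4% of all genes did not. No member was free of overlap between treated and untreated db/db mice, where the share was 10.2%. Between db/db-dapa mice and db/m mice 4 members, Agt, Ace, Agtr1a and Enpep, did not overlap, against 28.1% of all genes.

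**Figure D1:**
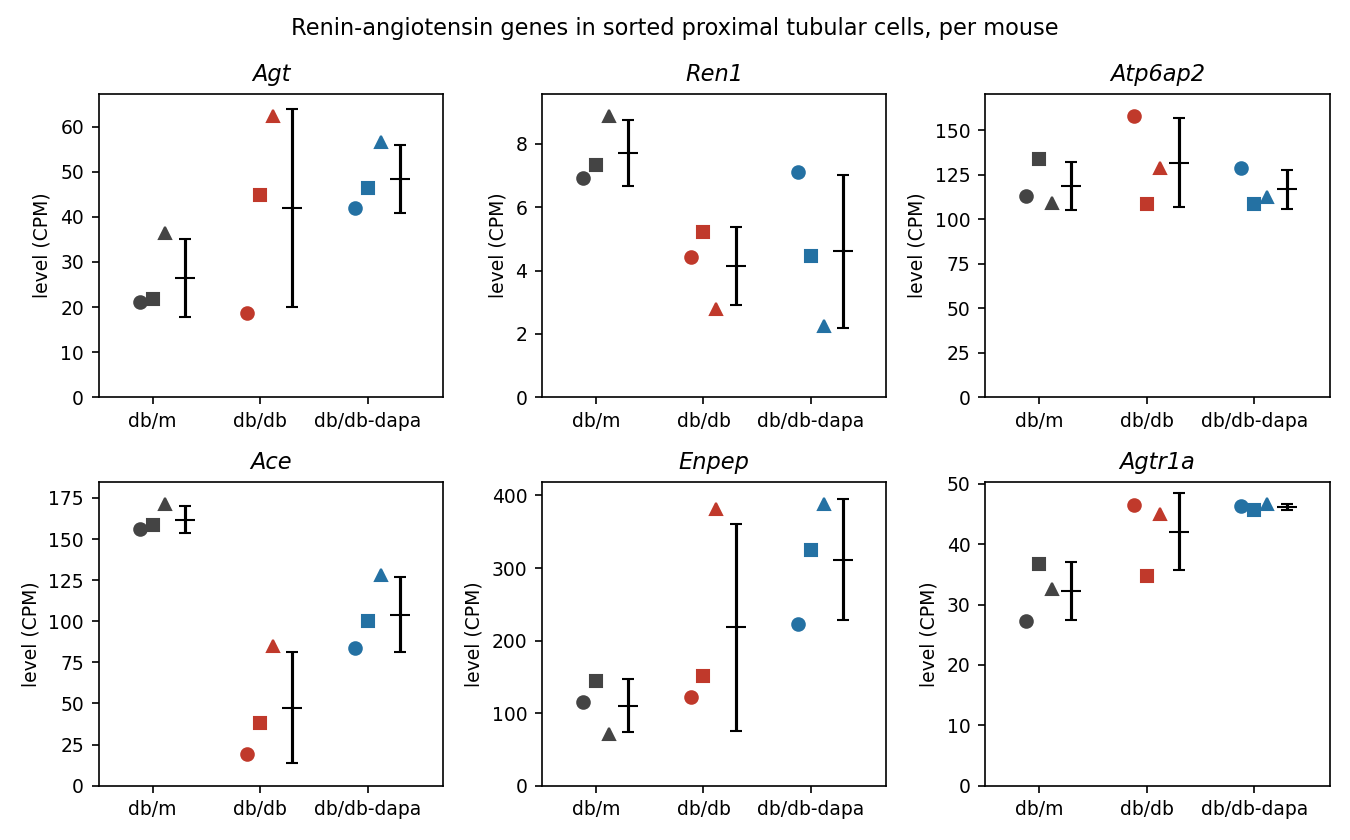
Level of the 6 members in CPM (vertical axes, from 0) in each of the 9 mice by group. Circles, squares and triangles are replicates 1, 2 and 3, and the bar beside each group is its mean ± SD (n = 3 mice). The 3 db/m mice sit at 156 to 171 CPM for Ace, above all 6 of the other mice.

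The substrate gene, Agt, encodes angiotensinogen and lies on chromosome 8 from 124556534 to 124569706 on the minus strand of GRCm38. Its level was 21.1, 21.8 and 36.4 CPM in db/m mice. In db/db mice it was 18.7, 44.8 and 62.4 CPM, and in db/db-dapa mice 41.9, 46.5 and 56.7 CPM. The db/db mice spanned the whole range, with db/db 1 below every db/m mouse, while all 3 db/db-dapa mice lay above all 3 db/m mice. The log2 fold change was 0.70 ± 0.36 (SE; adjusted p = 0.422) in db/db against db/m mice, or 0.30 without db/db 3 and 1.03 without db/db 1, and 0.18 ± 0.35 (adjusted p = 0.929) in treated against untreated db/db mice. In db/db-dapa against db/m mice it was 0.88 ± 0.36 (adjusted p = 0.246), with a 95% interval of 0.09 to 1.67 before any adjustment. The difference between treated and untreated db/db mice took the other sign, at -0.15, when db/db 1 was left out.

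The genes whose levels followed Agt most closely over the 9 mice were Got2, a mitochondrial aspartate aminotransferase, Ptk2, focal adhesion kinase, and Cyp4a14, a fatty acid hydroxylase, with Pearson r of 0.963, 0.958 and 0.957 on log2(CPM + 1) among 9134 genes searched. Cyp4a14 had its lowest db/db value in db/db 1, as Agt did, at 70.0 CPM against 633 and 1411 CPM in the other db/db mice. These are descriptions over mice that also share group and library. Of the transcription factors listed for the Agt promoter, 7 are reported here, with 0 called in each of the 3 comparisons (0, 0 and 1 had an unadjusted p under 0.05, and DESeq2 called 0) and median log2 fold changes of -0.12, 0.17 and 0.20 in the order used above, beside 0.02, -0.0094 and -0.02 for all genes. The highest of the 7 were Nr3c1, the glucocorticoid receptor, in both comparisons with db/m mice (0.40 ± 0.33 and 0.76 ± 0.33, SE), and Cebpb, a leucine zipper factor of the acute phase response (0.48 ± 0.37), in treated against untreated db/db mice. The lowest were Esr1, an estrogen receptor, in db/db against db/m mice (-0.42 ± 0.68) and Cebpd, a relative of Cebpb, in both comparisons with dapagliflozin (-0.24 ± 0.32 and -0.59 ± 0.31).

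Ren1 encodes renin, which in the adult kidney comes mainly from juxtaglomerular cells of the afferent arteriole, and lies on chromosome 1 from 133350510 to 133360325. It was the least abundant member. The deposited counts were 44.5, 41.5 and 40 in db/m mice, 13, 26.5 and 22.5 in db/db mice, and 50, 34 and 20 in db/db-dapa mice. Each of these values equals the value listed for Ren2 in the same mouse. Counts under the symbols Ren1 and Ren2 thus cannot be told apart, and the level of Ren1 is uncertain. On the scaled level the db/m mice were at 6.93, 7.33 and 8.88 CPM. The db/db mice were at 4.42, 5.20 and 2.78 CPM, and the db/db-dapa mice at 7.10, 4.46 and 2.26 CPM. All db/db mice lay below all db/m mice, while the db/db-dapa mice spread over both. The log2 fold change of Ren1 was -0.92 ± 0.43 (SE; adjusted p = 0.374) in db/db against db/m mice and -0.75 ± 0.41 (adjusted p = 0.338) in db/db-dapa against db/m mice, neither of which was called. Between treated and untreated db/db mice it was 0.17 ± 0.43 (adjusted p = 0.948), and its sign turned when db/db 3 (-0.071) or db/db-dapa 1 (-0.27) was left out.

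Markers of the renin-bearing vessel wall were low in these sorts, and most had a lower level in db/db than in db/m mice, as Ren1 had. Akr1b7, an enzyme of juxtaglomerular cells, was at 2.52, 1.75 and 2.44 CPM in db/m mice and at 0.126 to 1.36 CPM in the other 6 mice. Its counts were 15.5, 10 and 11 in db/m, 4, 2 and 1 in db/db, and 9, 2 and 6 in db/db-dapa mice. Akr1b7 is thus near the limit of detection, with db/db 2, db/db 3 and db/db-dapa 2 under 3 counts. Of 8 juxtaglomerular and mural genes, 7 had a lower level in db/db than in db/m mice. Of the 8, 0 were called, 2 had an unadjusted p under 0.05 and 3 were free of overlap, beside 16.4% of all genes. DESeq2 called 0 of them there and 2, Myh11 and Tagln, in db/db-dapa against db/m mice. Limma with mouse weights called these and Akr1b7, Acta2 and Notch3 in the latter, and Acta2 in treated against untreated db/db mice. Their summed level was 78.4 to 85.5 CPM in db/m, 66.0 to 82.6 CPM in db/db and 60.2 to 87.9 CPM in db/db-dapa mice. Akr1b7 was the lowest of them in db/db against db/m mice (-2.09 ± 0.81, SE, on the log2 scale) and Acta2, the actin of smooth muscle, in both comparisons with dapagliflozin (-1.11 ± 0.60 and -1.59 ± 0.59). Cspg4 was the highest in both comparisons with db/m mice (0.67 ± 0.32 and 0.89 ± 0.32), and Pdgfrb, another pericyte gene, between the groups of db/db mice (0.65 ± 0.81). The part of such cells in the Ren1 values was not tested. The genes closest to Ren1 in pattern were Tpm1, a tropomyosin, Cct7, a chaperonin subunit, and Erp29, a chaperone of the endoplasmic reticulum (r = 0.979, 0.963 and 0.958, n = 9 mice).

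Atp6ap2 lies on chromosome X from 12587801 to 12617049. Its level was 113, 134 and 109 CPM in db/m mice, 158, 108 and 129 CPM in db/db mice, and 129, 109 and 113 CPM in db/db-dapa mice. The 3 groups overlapped throughout, and 1 db/db mouse, db/db 1, was above all others. The log2 fold changes were 0.15 ± 0.18 (SE; adjusted p = 0.753) in db/db against db/m mice and -0.17 ± 0.18 (adjusted p = 0.873) in treated against untreated db/db mice. In db/db-dapa against db/m mice it was -0.024 ± 0.18, and 0.018 when libraries were scaled by their totals. Over the 3 comparisons the 95% intervals, before any adjustment, lay within -0.57 to 0.55, and each held values of both signs.

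The other subunits of the vacuolar proton pump, which acidifies endosomes in the tubule, gave 0 called genes of 21 in each comparison, with 0, 2 and 8 at an unadjusted p under 0.05, and DESeq2 called Atp6v1c2 and Atp6v1g3 in db/db-dapa against db/m mice, of which limma with mouse weights called Atp6v1g3. Their median log2 fold changes were -0.21 in db/db against db/m, -0.12 in db/db-dapa against db/db and -0.35 in db/db-dapa against db/m mice, and 16, 14 and 16 of the 21 were on the lower side. Those free of overlap numbered 3, 2 and 10 of the 21, beside 16.4%, 10.2% and 28.1% of all genes tested. Atp6v0a4, a kidney form of the membrane subunit, was the highest in both comparisons with db/m mice (0.45 ± 0.24 and 0.60 ± 0.24, SE), and Atp6v1g3, found in intercalated cells, was the lowest there (-0.64 ± 0.52 and -1.55 ± 0.53). Between the groups of db/db mice Atp6v1a (0.39 ± 0.25) and Atp6v1c2 (-0.96 ± 0.44) were the extremes. Thick limb and distal nephron markers were on the lower side as well, in 8 of 8 genes in both comparisons of db/db-dapa mice, with 0 called, 0 and 3 at an unadjusted p under 0.05, and 0 and 2 (Umod and Scnn1b) called by DESeq2. Limma with mouse weights called Aqp2 in both, and Umod and Scnn1b against db/m mice. The closest patterns to Atp6ap2 were looser than those of the other members, with Sirpa (r = 0.914), Rhpn2 (r = 0.908) and Zfp142 (r = 0.875) over 9 mice.

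Ace encodes angiotensin-converting enzyme and lies on chromosome 11 from 105967945 to 105989964 on the plus strand. Its level was 156, 159 and 171 CPM in db/m mice. In db/db mice it was 19.4, 38.0 and 85.0 CPM, and in db/db-dapa mice 83.5, 100.4 and 128 CPM. Every db/db mouse lay below every db/m mouse, and so did every db/db-dapa mouse, while db/db 3 was just above db/db-dapa 1. The SD was 8.03 CPM among the 3 db/m mice and 33.8 CPM among the db/db mice. The lowest value came from the shallowest library, db/db 1, with 57 counts.

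Ace was 3.35-fold lower in db/db than in db/m mice, with a log2 fold change of -1.74 ± 0.40 (SE; 95% interval -2.62 to -0.87, adjusted p = 0.0811). The call was near its threshold. It was lost when any 1 of db/m 1, 2 or 3, db/db 2, or db/db-dapa 2 or 3 was left out, with adjusted p of 0.232, 0.169, 0.192, 0.176, 0.143 and 0.112, while the log2 fold change in those fits stayed between -1.77 and -1.60. It was also lost when only the 2 groups were fitted (adjusted p = 0.146) or a GC trend was removed (adjusted p = 0.107). Without db/db 3 it was -2.47 (adjusted p = 0.00134), and over all alternatives the adjusted p ranged from 0.00134 to 0.232. In treated against untreated db/db mice Ace was 2.15-fold higher in level (log2 fold change 1.11 ± 0.39, adjusted p = 0.854), which was not called. With db/db 3 left out that difference was 1.84 (adjusted p = 0.0612) and was called, as were 272 genes in all against 0 with all mice. Limma with mouse weights called it with all 9 mice (1.60). Against db/m mice, db/db-dapa mice had a log2 fold change of -0.64 ± 0.39 (adjusted p = 0.381).

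**Figure D2:**
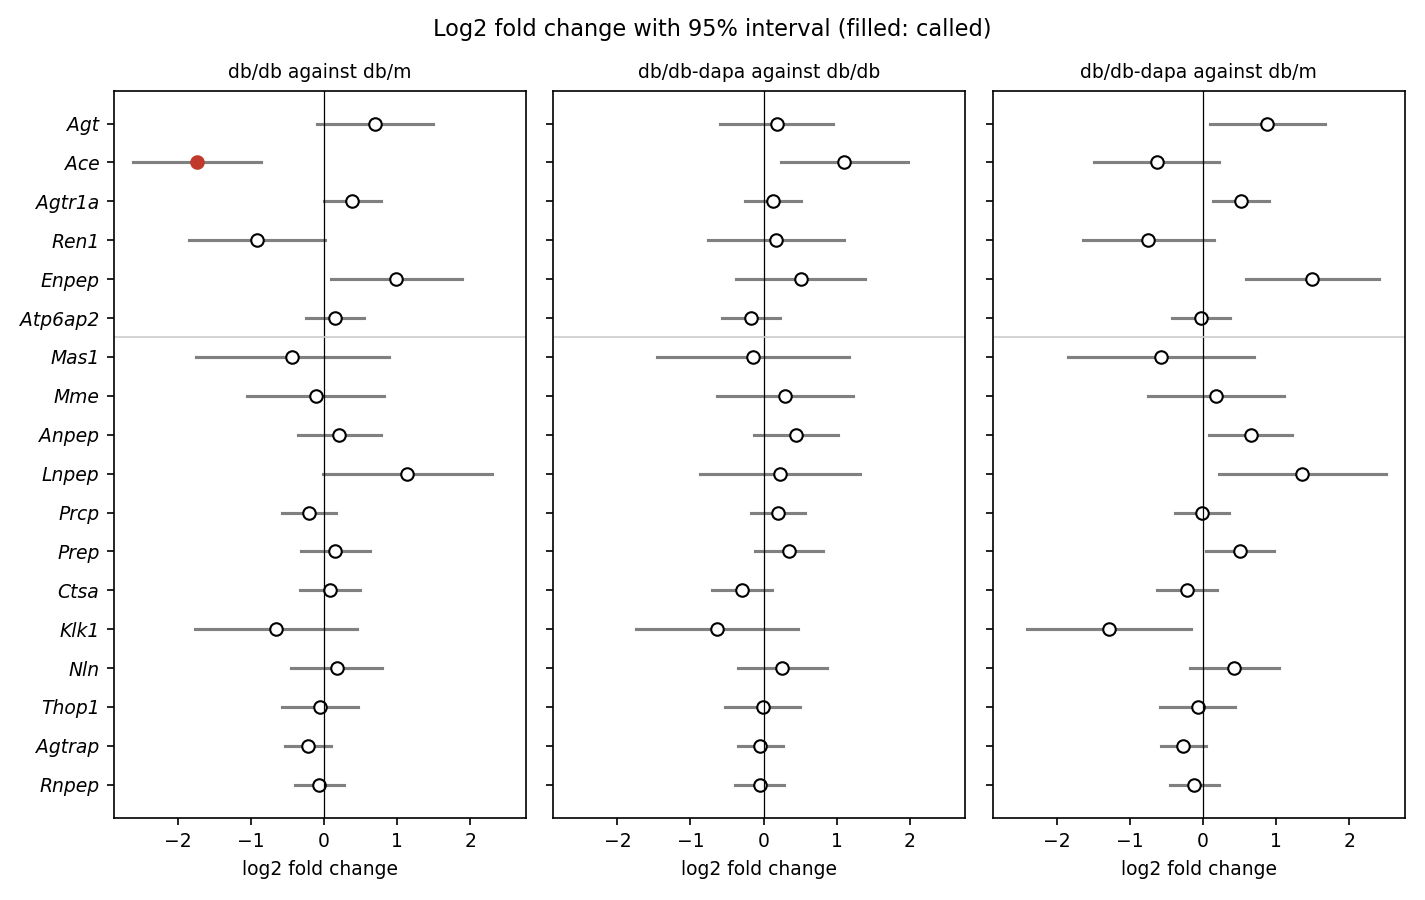
Log2 fold change (horizontal axes) of the 6 members, above the grey line, and of 12 other renin-angiotensin system genes, below it, in the 3 comparisons. Points are estimates, bars their 95% intervals, and a filled point is a called gene. Ace in db/db against db/m mice, at -1.74, is the only filled point.

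The promoter of Ace is shown as the sequence at the start of the member that was called. RefSeq windows were matched for 5 of the 6 members. The window (chr11:105967698-105967997, GRCm38.p6, plus strand) runs from 250 bases before the start to 50 after it, and capitals mark matches, on both strands, to a TATA box (TATAAA), to a GC box (GGGCGG) and to an HNF4 half-site (CAAAGT).
Ace promoter: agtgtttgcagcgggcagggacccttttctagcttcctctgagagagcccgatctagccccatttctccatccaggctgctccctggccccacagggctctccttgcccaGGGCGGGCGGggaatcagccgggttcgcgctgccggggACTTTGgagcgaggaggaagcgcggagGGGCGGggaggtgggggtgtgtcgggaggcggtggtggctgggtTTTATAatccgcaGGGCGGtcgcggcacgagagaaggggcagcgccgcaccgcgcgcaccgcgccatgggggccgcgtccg
The window held 4 GC boxes, 2 of which overlap, 1 TATA box and 1 HNF4 half-site. Other motifs searched had 0 matches: the HNF1 half-site, C/EBP, hypoxia response core, glucocorticoid or androgen half-site and CRE half-site. Of 32851 windows of this length, 35.7% held a GC box, 13.6% a TATA box and 14.4% an HNF4 half-site. A further start of Ace inside the gene, known for the form made in the testis, has its own window (chr11:105974939-105975238), and the counts per gene do not tell transcripts from the 2 starts apart. These matches are letters in a window and not sites of binding.

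The gene with the pattern closest to Ace among 9134 was also its neighbour. Cyb561, a cytochrome of vesicle membranes, lies 14.6 kb from Ace on the opposite strand (chromosome 11, 105933702 to 105953336) and had r = 0.974 with it over 9 mice. It was at 41.3, 42.4 and 44.0 CPM in db/m mice, 15.3, 19.2 and 24.8 CPM in db/db mice and 31.8, 30.9 and 34.4 CPM in db/db-dapa mice. The 3 groups did not overlap, and db/db-dapa mice lay between the others. Cyb561 was called in db/db against db/m mice, with a log2 fold change of -1.09 ± 0.19 (SE; adjusted p = 0.0239), and was at 0.69 ± 0.19 (adjusted p = 0.854) in treated against untreated db/db mice. The other tested neighbours within 100 kb, Tanc2, Dcaf7, Taco1 and Map3k3, had r of 0.068, 0.438, 0.320 and -0.321 with Ace and log2 fold changes of 0.47, 0.021, 0.13 and 0.62 in db/db against db/m mice, with no call. Gm11651, which overlaps Ace on the opposite strand (105965608 to 105985694), had 5 to 59.5 counts per mouse and a log2 fold change of -1.24 ± 0.41 (SE; adjusted p = 0.214) in that comparison. Whether strand was used in the counting is not given in the sources used here, so reads of Ace and Gm11651 cannot be told apart.

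Ace followed some of the 6 listed genes of the S3 segment, the last and straight stretch of the proximal tubule, more closely than others. The r with Ace over 9 mice was 0.968 for Atp11a, a phospholipid flippase and the third closest gene after Mpp6 (r = 0.970), 0.909 for Slc7a13, an amino acid transporter, and 0.847 for Acy3, an aminoacylase. It was 0.648 for Slc22a7, an organic anion transporter, 0.493 for Slc5a1, the glucose transporter SGLT1, and 0.047 for Cyp7b1, an oxysterol hydroxylase. In db/db against db/m mice, 2 of 6 S3 genes were called, both lower: Acy3, with a log2 fold change of -1.90 ± 0.23 (SE; adjusted p = 0.00461), and Slc22a7, which had 467, 277 and 193 counts in db/m mice against 1, 1 and 2 in db/db and 2, 4 and 4 in db/db-dapa mice. The same 2 genes were called lower in db/db-dapa against db/m mice, Acy3 by -1.30 ± 0.23 (adjusted p = 0.0396), and 0 were called by edgeR or DESeq2 in treated against untreated db/db mice, where 1 had an unadjusted p under 0.05 and limma with mouse weights called Slc5a1 and Atp11a. DESeq2 called Slc7a13 as well in db/db against db/m mice and Cyp7b1 in db/db-dapa against db/m mice. Limma with mouse weights added Slc7a13 and Atp11a in the first of these and Slc7a13 and Cyp7b1 in the second. Slc7a13 was at 310 to 484 CPM in db/m, 7.40 to 100.2 CPM in db/db and 35.1 to 125 CPM in db/db-dapa mice, a log2 fold change of -3.27 ± 0.83 (adjusted p = 0.108) in db/db against db/m mice. The highest S3 gene in both comparisons with db/m mice was Slc5a1 (0.38 ± 0.44 and 0.94 ± 0.44), at 67.5 to 77.6 CPM in db/m, 28.9 to 170.5 CPM in db/db and 131 to 147 CPM in db/db-dapa mice. Between treated and untreated db/db mice Slc7a13 was the highest (1.02 ± 0.78) and Cyp7b1, with at most 48 counts, the lowest (-1.47 ± 1.04). The summed level of the 6 genes was 3824 to 4533 CPM in db/m, 699 to 1806 CPM in db/db and 1742 to 2155 CPM in db/db-dapa mice. The part of S3 cells in the Ace values was not tested.

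Vascular endothelium is another site where Ace is abundant. The r of the 8 endothelial genes with Ace over 9 mice was -0.755 to -0.457. All 8 endothelial genes had a higher level in db/db than in db/m mice, with 0 called by edgeR or DESeq2, 0 at an unadjusted p under 0.05 and 0 free of overlap, and their summed level was 73.7 to 185 CPM in db/m, 82.2 to 274 CPM in db/db and 56.2 to 267 CPM in db/db-dapa mice. Plvap was the highest of them (1.24 ± 0.75, SE, on the log2 scale) and Tie1 the lowest (0.27 ± 0.63) in db/db against db/m mice. Limma with mouse weights called Pecam1, Plvap and Tie1 in treated against untreated db/db mice. Between the groups of db/db mice Kdr (-0.022 ± 0.54) and Plvap (-1.46 ± 0.75) were the extremes, and in db/db-dapa against db/m mice Kdr (1.01 ± 0.56) and Tie1 (-0.66 ± 0.64). The general proximal tubular markers were on the higher side in db/db mice in 7 of 8 genes, with 0 called by edgeR or DESeq2 and 3 at an unadjusted p under 0.05, from -0.31 ± 0.41 for Slc22a6 to 0.79 ± 0.29 for Slc5a12. Their r with Ace was -0.825 to 0.782. The part of endothelial cells, or of the share of proximal tubular cells, in the Ace values was not tested.

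**Figure D3:**
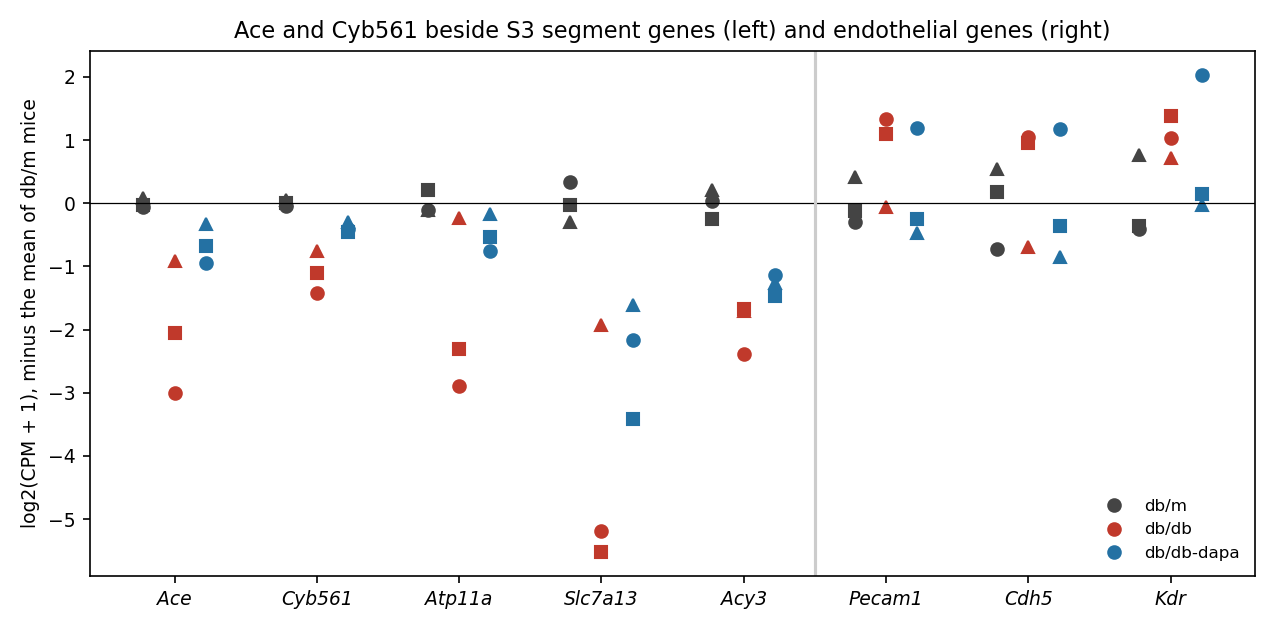
Level of Ace, its neighbour Cyb561, 3 of the 6 genes of the S3 segment and 3 of the 8 endothelial genes, all chosen after their values were seen, in each mouse, as log2(CPM + 1) minus the mean of the db/m mice (vertical axis). Circles, squares and triangles are replicates 1, 2 and 3. All db/db mice (red) lie below the db/m mice (grey) for the 5 genes on the left, and not for the endothelial genes on the right. Of the S3 genes not drawn, Slc5a1 and Cyp7b1 overlapped between these groups.

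Enpep encodes aminopeptidase A, which removes the first residue of angiotensin II, and lies on chromosome 3 from 129269175 to 129332720 on the minus strand. Its level was 115, 144 and 71.3 CPM in db/m mice. In db/db mice it was 122, 150.5 and 381 CPM, and in db/db-dapa mice 223, 325 and 388 CPM. All db/db-dapa mice lay above all db/m mice, while 2 of the db/db mice were close to the db/m range and the third, db/db 3, was at the level of the highest db/db-dapa mouse. The log2 fold change of Enpep was 0.99 ± 0.41 (SE; adjusted p = 0.316) in db/db against db/m mice and 0.51 ± 0.40 (adjusted p = 0.854) in treated against untreated db/db mice. It was 1.5 ± 0.41 in db/db-dapa against db/m mice, a 2.82-fold higher level, and was not called (adjusted p = 0.139). That difference was called by DESeq2 (1.49, adjusted p = 0.0153) and when db/db 3 was left out (1.5, adjusted p = 0.0174), in the range of 0.00322 to 0.451 over its alternatives. Leaving out db/db 3 also turned the comparison of db/db-dapa with db/db mice into a call (1.20, adjusted p = 0.0941), and took db/db against db/m mice down to 0.30.

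The level of Enpep went with the balance between long and short transcripts in the libraries. This balance is the median deviation of genes in the top quartile of length (4650 bases or more) minus that of the bottom quartile (2026 bases or less), on the log2 scale. It was -0.29, -0.053 and -0.51 in db/m, -0.12, -0.19 and 0.48 in db/db, and -0.0071, 0.28 and 0.36 in db/db-dapa mice. Its r over the 9 mice was 0.972 with Enpep, -0.843 with Ren1, 0.733 with Agtr1a, 0.616 with Agt, 0.090 with Atp6ap2 and -0.027 with Ace. With a length trend removed in each mouse, an alternative added after the data were seen, the log2 fold changes of Enpep were 0.89, 0.50 and 1.39 in the order used above, and Ace in db/db against db/m mice was -1.91 (adjusted p = 0.0306). The genes closest to Enpep were Pde8a, a phosphodiesterase (r = 0.990), Fut9, a fucosyltransferase (r = 0.988), and Slc4a4, the basolateral bicarbonate exit of the proximal tubule (r = 0.988). Their r with the same balance was 0.973, 0.990 and 0.984, and edgeR called 0 of these 3 genes, while the calls of Slc4a4 by other tools are given with the sodium transport genes. With the balance of GC-rich against GC-poor genes, taken by quartiles in the same way, the r was -0.875 for Enpep and 0.661 for Ren1, and -0.251 for Ace.

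**Figure D4:**
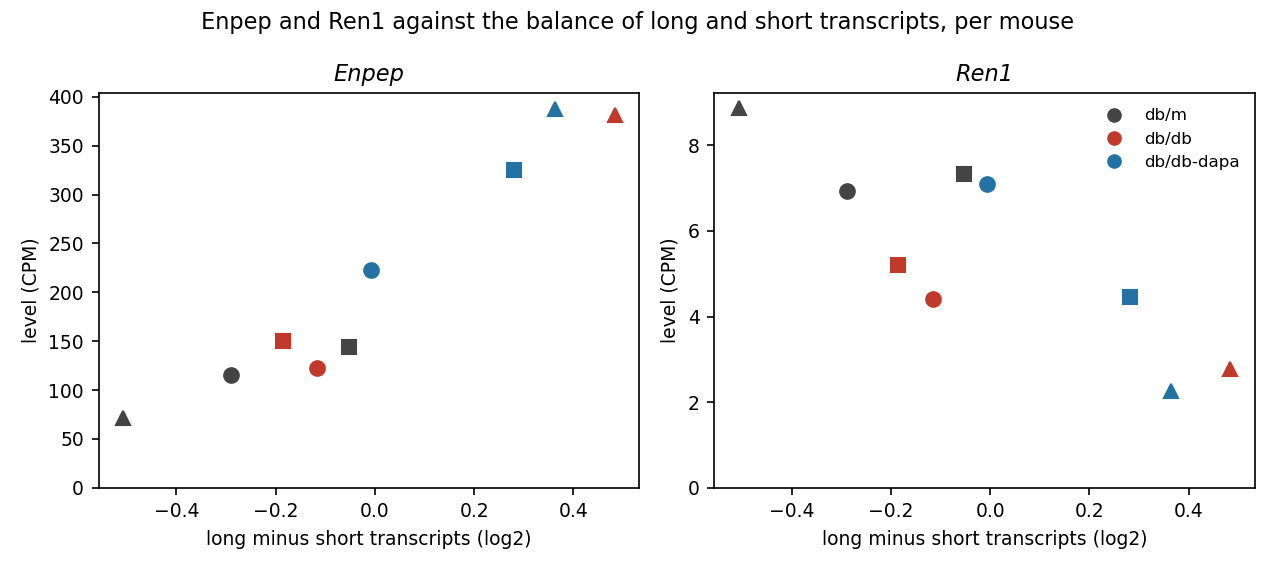
Level of Enpep and Ren1 in CPM (vertical axes, from 0) against the balance of long and short transcripts in each library (horizontal axes, log2). Each point is 1 mouse, and circles, squares and triangles are replicates 1, 2 and 3. Enpep runs upwards with the balance (r = 0.972) and Ren1 downwards (r = -0.843), and db/db 3 sits with the db/db-dapa mice at the right.

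The receptor gene, Agtr1a, encodes the main AT1 receptor of the mouse kidney and lies on chromosome 13 from 30336441 to 30382867. It was at 27.2, 36.8 and 32.6 CPM in db/m mice. In db/db mice it was at 46.6, 34.8 and 45.0 CPM, and in db/db-dapa mice at 46.3, 45.7 and 46.6 CPM. The db/db-dapa mice were close together, at an SD of 0.465 CPM, and all above the db/m mice, while db/db 2 fell within the db/m range. The log2 fold change was 0.38 ± 0.18 (SE; adjusted p = 0.372) in db/db against db/m mice, 0.14 ± 0.17 (adjusted p = 0.892) in treated against untreated db/db mice and 0.52 ± 0.18 (adjusted p = 0.201) in db/db-dapa against db/m mice. Its 95% intervals stayed under 1 in all 3 comparisons.

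Genes with the pattern of Agtr1a were Slc6a19, the brush border carrier of neutral amino acids (r = 0.980), Maf, a transcription factor (r = 0.968), and Plekha1, an adaptor that binds phosphoinositides (r = 0.960). Plekha1 was called in both comparisons with db/m mice, at log2 fold changes of 1.05 ± 0.20 (SE; adjusted p = 0.0393) and 1.14 ± 0.20 (adjusted p = 0.0396), whereas Slc6a19 and Maf were not. The other angiotensin receptors were at or near the limit of detection. Agtr1b had 0 counts in all mice, which allows up to 3 counts or 0.339 to 1.02 CPM per library by counting error alone, and Agtr2 had at most 1 count. Mas1, the receptor of angiotensin 1-7, had 3 to 16 counts per mouse and log2 fold changes of -0.43, -0.14 and -0.58 in the order used above.

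Of 13 genes that act downstream of the AT1 receptor, 1 was called in db/db against db/m mice. This was Nox4, an NADPH oxidase of the tubule that makes hydrogen peroxide, at 459, 394 and 397 CPM in db/m, 983, 831 and 699 CPM in db/db and 557, 759 and 927 CPM in db/db-dapa mice. It was higher in all db/db and db/db-dapa mice than in the db/m mice, with a log2 fold change of 1.01 ± 0.22 (SE; adjusted p = 0.0645) in db/db against db/m mice and 0.84 ± 0.21 (adjusted p = 0.112) in db/db-dapa against db/m mice. In db/db against db/m mice DESeq2 did not call Nox4, and limma with mouse weights did. Neither called it in db/db-dapa against db/m mice. Gna12, a G protein subunit, was the highest of the list in both of these comparisons (1.02 ± 0.50 and 1.38 ± 0.50), and Arrb1 (-0.48 ± 0.29) and Rgs2 (-0.88 ± 0.46), which end receptor signals, were the lowest. In db/db-dapa against db/m mice 0 were called, with 6 at an unadjusted p under 0.05, while DESeq2 called Gna12 and Plcb1, and limma with mouse weights called these and Arrb2 and Rgs2. Between treated and untreated db/db mice 0 were called by edgeR or DESeq2, limma with mouse weights called Gna12 and Arrb2, and 0 had an unadjusted p under 0.05, from -0.89 ± 0.52 for Plcb4 to 0.38 ± 0.31 for Gnaq. The medians of the list were 0.058, -0.15 and 0.26.

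Sodium transport genes of the proximal tubule, on which angiotensin II acts, included 0 of 10 called by edgeR in each comparison, with 2, 0 and 2 at an unadjusted p under 0.05 and medians of 0.40, 0.0081 and 0.28. DESeq2 called Slc9a3 in both comparisons with db/m mice and Slc4a4 in that of db/db-dapa mice. Limma with mouse weights called both in db/db-dapa against db/m mice, and Slc4a4 and Slc5a1 in treated against untreated db/db mice. Slc9a3, the sodium-proton exchanger NHE3, was the highest against db/m mice. It was at 18.0, 30.9 and 12.9 CPM in db/m, 25.5, 44.0 and 156 CPM in db/db and 48.0, 78.5 and 109 CPM in db/db-dapa mice. Its log2 fold changes were 1.88 ± 0.59 (SE; adjusted p = 0.191) in db/db and 1.92 ± 0.59 (adjusted p = 0.171) in db/db-dapa against db/m mice, and db/db 3 was again the highest mouse. The lowest were its scaffolds Slc9a3r1 (-0.19 ± 0.20, db/db against db/m mice) and Slc9a3r2 (-0.43 ± 0.57, db/db-dapa against db/m mice). Between the groups of db/db mice the range was -0.56 ± 0.38 for Slc34a3 to 0.55 ± 0.44 for Slc5a1.

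Other peptidases, receptors and partners of the system were read from a list, of which 18 genes are reported here and 12 were tested. Agtr1b, Mrgprd, Agtr2, Cma1 and Ctsg had at most 2 counts in any mouse and were not tested, and Cltrn was not analysed here. In each comparison 0 of the 12 were called, DESeq2 also called 0, limma with mouse weights called Lnpep and Klk1 in db/db-dapa against db/m mice, and the median log2 fold change was -0.062 in db/db against db/m, 0.09 in db/db-dapa against db/db and -0.04 in db/db-dapa against db/m mice. At an unadjusted p under 0.05 there were 0, 0 and 4 of them, the last being Anpep, Lnpep, Prep and Klk1. Those free of overlap numbered 1, 1 and 4 of the 12, beside 16.4%, 10.2% and 28.1% of all genes tested.

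Among the peptidases that break angiotensins down, Lnpep, the receptor of angiotensin IV, was the highest against db/m mice, with log2 fold changes of 1.14 ± 0.53 (SE; adjusted p = 0.374) and 1.36 ± 0.52 (adjusted p = 0.227). Its level was 10.1, 11.3 and 6.44 CPM in db/m, 9.86, 10.4 and 39.5 CPM in db/db and 13.2, 24.7 and 34.1 CPM in db/db-dapa mice. As for Enpep, db/db 3 lay apart from the other db/db mice. Anpep, aminopeptidase N, rested at 0.21 ± 0.26, 0.44 ± 0.26 and 0.65 ± 0.26 over the 3 comparisons, and Mme, neprilysin, at -0.12 ± 0.43, 0.29 ± 0.42 and 0.17 ± 0.42. Klk1, tissue kallikrein of the distal nephron and a member of a family of near-identical genes, was the lowest, at -0.66 ± 0.51, -0.64 ± 0.51 and -1.29 ± 0.51. The cytosolic and lysosomal peptidases Prcp, Prep, Ctsa, Nln, Thop1 and Rnpep ranged from -0.30 to 0.50 over the comparisons. Agtrap, which binds the AT1 receptor and lowers its surface level, was at 95.3 to 109 CPM in db/m, 85.6 to 87.7 CPM in db/db and 82.2 to 85.6 CPM in db/db-dapa mice. Its groups did not overlap, yet the log2 fold change in db/db against db/m mice was -0.23 ± 0.14 (adjusted p = 0.527).

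Per kilobase of transcript, the order of the members differed between groups. In db/m mice Atp6ap2 stood first at 51.1 ± 5.76 CPM per kb (SD, n = 3), followed by Ace at 33.0 ± 1.64 and Enpep at 26.4 ± 8.78, which overlapped, then Agtr1a at 14.7 ± 2.18 and Agt at 14.0 ± 4.57, which overlapped as well, and Ren1 at 4.85 ± 0.648. In db/db mice Atp6ap2 (56.7 ± 10.7), Enpep (52.2 ± 34.0), Agt (22.2 ± 11.6), Agtr1a (19.2 ± 2.90) and Ace (9.68 ± 6.89) each overlapped the next. Only Ren1 (2.60 ± 0.777), by its listed values, was set apart from its neighbour. Those values equal the values of Ren2 in every mouse, so the level of Ren1 is uncertain. With the equal value of Ren2 added, Ren1 in db/db 2, listed at 3.27 CPM per kb, would lie above Ace in db/db 1, at 3.95. Ren1 would then not be set apart in db/db mice. Ace held the second place of the 6 in db/m and the fifth in db/db mice. In db/db-dapa mice Enpep (74.6 ± 19.9) and Atp6ap2 (50.2 ± 4.66) overlapped at the top, above Agt (25.6 ± 4.0), Ace (21.2 ± 4.61) and Agtr1a (21.0 ± 0.212), each of which overlapped the next, and Ren1 was last at 2.89 ± 1.52. Against all genes tested, Ace lay by its level per kilobase above 85.8% of them in db/m mice, 64.7% in untreated db/db mice and 79.9% in db/db-dapa mice, and Enpep above 82.9%, 91.4% and 93.8%.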

How the data were processed

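RNA from FACS-sorted tdTomato + proximal tubular cells of 9 mice, 3 per group, was analysed, with groups and replicate numbers from the sample labels. Per the labels, the authors prepared stranded poly(A) libraries and sequenced single-end reads. Per the submitters' processing notes, TopHat2 2.0.13, Bowtie2 2.2.3, SAMtools 0.1.19 and Cufflinks 2.2.1 were used with mm10. The deposited table is named as FPKM but holds estimated counts per gene (85.9% of values above 0 are whole). How the authors made these estimated counts, the annotation and the use of strand are not given in the sources used here.

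Counts were rounded, and genes at 0.3 CPM or more in at least 2 of 9 mice (15583) were tested with edgeR 4.0.16 (quasi-likelihood, TMM scaling, group as the only term, all 9 mice) in R 4.3.3. P-values were adjusted after Benjamini-Hochberg over all genes tested. Alternatives used DESeq2 1.42.0, limma 3.58.1 on log2(CPM + 1) and with mouse weights, other scalings and filters, only the groups compared, a replicate block, and leaving out each mouse. Removal of a length or GC trend, and the sum of Ren1 and Ren2, were added after the data were seen. Coordinates, exons and lengths came from the GRCm38 annotation, in which 23350 symbols matched directly, 677 as older symbols and 394 did not match. Promoter windows are RefSeq's. A floor of 3 counts was 0.339 to 1.02 CPM per mouse, and covers counting error only.

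The members and gene lists were chosen with earlier results of these data known. Named genes were the 6 members, other tested genes of the system, the highest and lowest gene and any called gene of each list per comparison, the 3 genes closest in pattern to each member over genes with a mean of at least 10 CPM, and markers of cells that touch a member. The neighbours of Ace and other genes are named after their values were seen. Some genes of the lists are not reported here, and list counts and medians are over the others.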

Additional observations from a re-analysis of the deposited data

How the results depend on the processing

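Agtr1a kept its direction and stayed uncalled under all alternatives and in all comparisons, and so did Agt, Ren1, Enpep and Atp6ap2 in db/db against db/m mice. In that comparison Ace remained negative throughout but was no longer called when only the 2 groups were fitted (-1.75, adjusted p = 0.146) or a GC trend was removed (-1.70, adjusted p = 0.107), which left 0 members called. The genes called were then 115 with only the 2 groups, and 363 with DESeq2. In treated against untreated db/db mice, weights per mouse gave calls for Ace (1.60) and Enpep (1.07), 2 members and 449 genes in all, turned Ren1 to -0.16, and DESeq2 called 13 genes. In db/db-dapa against db/m mice Enpep was called without a filter beyond 1 count (1.5), with DESeq2 (1.49), with mouse weights (1.48) and with only the 2 groups (1.5). The members called there were 1, 1, 2 and 1, the added one being Agt with mouse weights (1.07), and the genes called were 275, 507, 1619 and 630. Of the other genes of the system, Lnpep and Klk1 were called with mouse weights (2 genes) and Lnpep with only the 2 groups (1 gene). Atp6ap2 in this comparison turned to 0.018 with total count scaling and to 0.073 with a length trend removed. Fewer mice enter the fit of 2 groups and weights lower the part of single mice by construction. For the others the cause was not tested.

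With 1 mouse left out at a time, Ace in db/db against db/m mice ranged from -2.47 to -1.39 and was called in 3 of 9 fits, members called from 0 to 1, and genes called from 84 (without db/m 1) to 230. In treated against untreated db/db mice Agt ranged from -0.15 to 0.59, Ace from 0.75 to 1.84, Ren1 from -0.27 to 0.52, and Enpep from 0.23 to 1.20. Members called ranged from 0 to 2, other genes of the system from 0 to 1 (Mme) and all genes from 0 to 272, each highest without db/db 3. In db/db-dapa against db/m mice Enpep ranged from 1.26 to 1.74, Atp6ap2 from -0.097 to 0.071, members called from 0 to 1, other genes of the system from 0 to 2 (Lnpep and Klk1, without db/db 3), and all genes from 14 (without db/db-dapa 2) to 662 (without db/db 3).

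With replicate number as a block, Ace in db/db against db/m mice was -1.95 (adjusted p = 0.033), 185, 0 and 167 genes were called in the 3 comparisons, and no call of a member changed. Mice with the same number did not all deviate together (r from -0.323 to 0.563), and 4 of 9 had their closest mouse of another group under the same number, so the numbers were not taken as pairs.

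With 3 mice per group and db/db 3 unlike the other db/db mice in the balance of long transcripts, in Enpep and in Ace, differences involving db/db mice are wide. Ren1, with 13 to 50 counts per mouse, is limited by depth and shares its values with Ren2. Precision was lowest in db/db 1, the shallowest library.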
